A study of Homo sapiens with 16 samples.

Results

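Ribosomes are assembled in the nucleolus, and 39 genes whose products act there were followed in VCaP cells under an androgen, an antiandrogen and both. The genes were taken by name from a list that was written with earlier results of these data known, with no threshold on their values, and each matched 1 gene identifier among the 58302 genes listed in the count files. All 39 passed the filter on low counts and were tested with 22553 genes in all. The gene with the fewest counts in any library was PPAN, with 40, and the one with the most was NCL, with 5085.

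VCaP cells are an established line of human prostate cancer. Dihydrotestosterone (DHT) is an androgen, and enzalutamide is an antiandrogen drug. The cells came in 2 versions. Ver cells had been kept for 4 months in 1 µM enzalutamide, and Vc cells for 4 months in ethanol, the solvent. Each version is 1 line, so a difference between Ver and Vc compares these 2 lines. Both were then starved of hormone, in charcoal-stripped serum without phenol red, for 48 h or more. They were treated for 24 h with 1 nM DHT, with 1 nM DHT plus 1 µM enzalutamide, with 1 µM enzalutamide, or left as controls. This gives 8 groups of 2 libraries, 16 in all, of polyA RNA. The labels do not say whether the 2 libraries of a group came from separate cultures, so the tests measure the spread between these libraries, which may be technical.

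In the nucleolus RNA polymerase I transcribes the ribosomal RNA precursor. Small nucleolar ribonucleoproteins (snoRNPs) then modify it. Box C/D snoRNPs methylate riboses and box H/ACA snoRNPs turn uridines into pseudouridines. Large assemblies cut the precursor and fold it into the small and the large ribosomal subunit. Growing cells make ribosomes at a high rate, and the transcription factor MYC is known to drive many genes of this programme. The 39 genes were grouped by these roles.

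The libraries held 8155244 to 13273523 counts in genes. Reads that the authors' counting placed on no feature of a gene were 45.0 to 50.6% of the counted reads. Whether they lay in introns or between genes was not examined. The share was lower with DHT: 45.4 ± 0.213% with DHT against 48.8 ± 0.250% in controls of Ver, and 47.0 ± 0.131% with DHT against 50.4 ± 0.342% in controls of Vc (mean ± SD, n = 2). The part of this share in the results below was not tested. Scaling factors (TMM) ran from 0.919 to 1.07. They were 0.939 and 0.924 with DHT against 1.06 and 1.06 in controls of Ver. In Vc they were 0.919 and 0.919 with DHT against 1.03 and 1.04 in controls. Fits with library totals alone, without these factors, are given below for several comparisons. The labels' run names carry lane 2 for every Ver library and lane 8 for every Vc library, so lane and line cannot be told apart. All 8 markers of luminal prostate epithelium were above 1 CPM (counts scaled to a common library size) in some library, with summed levels of 3263 to 9920 CPM. Summed markers reached at most 2.30 CPM for basal epithelium, 3.35 CPM for endothelium and 1.70 CPM for immune cells. The 5 stromal markers summed to between 2.05 and 83.6 CPM. LUM, the gene of an extracellular matrix proteoglycan, was the highest of the 5 in every library except the 4 with DHT alone, where COL1A1 was the highest, and it moved with DHT. It had 0.803 and 1.20 CPM with DHT against 57.2 and 49.6 CPM in controls of Ver, and 0.328 and 0.610 CPM with DHT against 14.0 and 13.5 CPM in controls of Vc. Its part in the results was not tested. The known androgen target FKBP5 had 1711 and 1845 CPM with DHT against 69.0 and 74.1 CPM in controls of Ver, and 1761 and 1784 CPM with DHT against 64.7 and 63.1 CPM in controls of Vc.

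Together the 39 genes held between 0.178 and 0.340% of the gene counts of a library. Per kilobase of merged exons in Vc controls, NPM1 was the highest at 98.8 ± 2.05 CPM per kb, followed by NCL at 55.1 ± 1.96, FBL at 48.3 ± 2.28, NOLC1 at 45.5 ± 2.72 and GNL3 at 44.1 ± 1.38 CPM per kb (mean ± SD, n = 2). FBL and NOLC1, and NOLC1 and GNL3, are neighbours whose levels overlap within these SDs. PPAN was the lowest at 3.30 ± 0.406 CPM per kb, next to GAR1 at 3.87 ± 0.429 and NIP7 at 3.92 ± 0.730 CPM per kb, and these 3 overlap within their SDs too. PPAN, with 2583 bases of exon, overlaps P2RY11 and PPAN-P2RY11 on its strand by 1544 bases, summed over both. NIP7, with 4749, shares 957 with COG8 on the other strand. Reads in shared exons can go uncounted while the full length is used, so such levels may be too low, which was not tested. The median coefficient of variation between the 2 libraries of a group was 4.00% over the 39 genes, and the highest was 38.9%.

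DHT lowered most of the nucleolar genes in both lines. In CPM scaled by TMM, their summed level was 2013 ± 29.5 CPM with DHT against 2788 ± 30.8 CPM in controls of Ver, and 1960 ± 32.7 CPM with DHT against 3280 ± 47.2 CPM in controls of Vc (mean ± SD, n = 2). A call here means that edgeR's quasi-likelihood test (two-sided), adjusted by Benjamini-Hochberg for every gene in the fit, gave a p below 0.05. In Ver 31 of 39 were called lower and 1 higher, where 22.9% of all genes tested were called lower and 21.2% higher. In Vc 32 of 39 were called lower and 1 higher, where 22.5% of all genes were called lower and 21.8% higher. The median log2 change of the 39 genes was -0.53 in Ver and -0.80 in Vc, against -0.041 and -0.036 over all genes tested. A fall of at least 2-fold was fitted for 2 of the 39 in Ver and 10 in Vc, and one beyond 1.5-fold for 14 in Ver and 25 in Vc. The shares of all genes past these folds are not given here, so these counts only describe the 39 genes. Genes of low level are called less often: among the 12428 genes with a mean of at least 5 CPM, which include all 39, 29.2% were called lower in Ver and 29.2% in Vc. CPM are shares of the counted mRNA of a library, and in such bulk samples fewer cells of a type and less RNA per cell cannot be told apart.

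The same 31 genes were called lower in both lines, and the share of all genes lower in both was not counted. GAR1, PNO1, RRN3, RRP12 and UBTF were called in neither. The remaining 3 were NOP10, called higher in Vc, GNL3, called higher in Ver, and DDX18, called lower in Vc. With each library scaled to its gene total alone, the median over all genes tested moved to -0.23 in Ver and -0.21 in Vc, and that of the 39 genes to -0.72 and -0.98. The calls over all genes were then 3300 higher and 7021 lower in Ver, against 4772 higher and 5164 lower with TMM, and 3575 higher and 6814 lower in Vc, against 4917 higher and 5070 lower with TMM. Of the 39 genes, 0 were then higher and 32 lower in Ver, and 1 higher and 36 lower in Vc. None of the called changes of the 39 genes reversed under this or any other setting run.

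**Figure D1:**
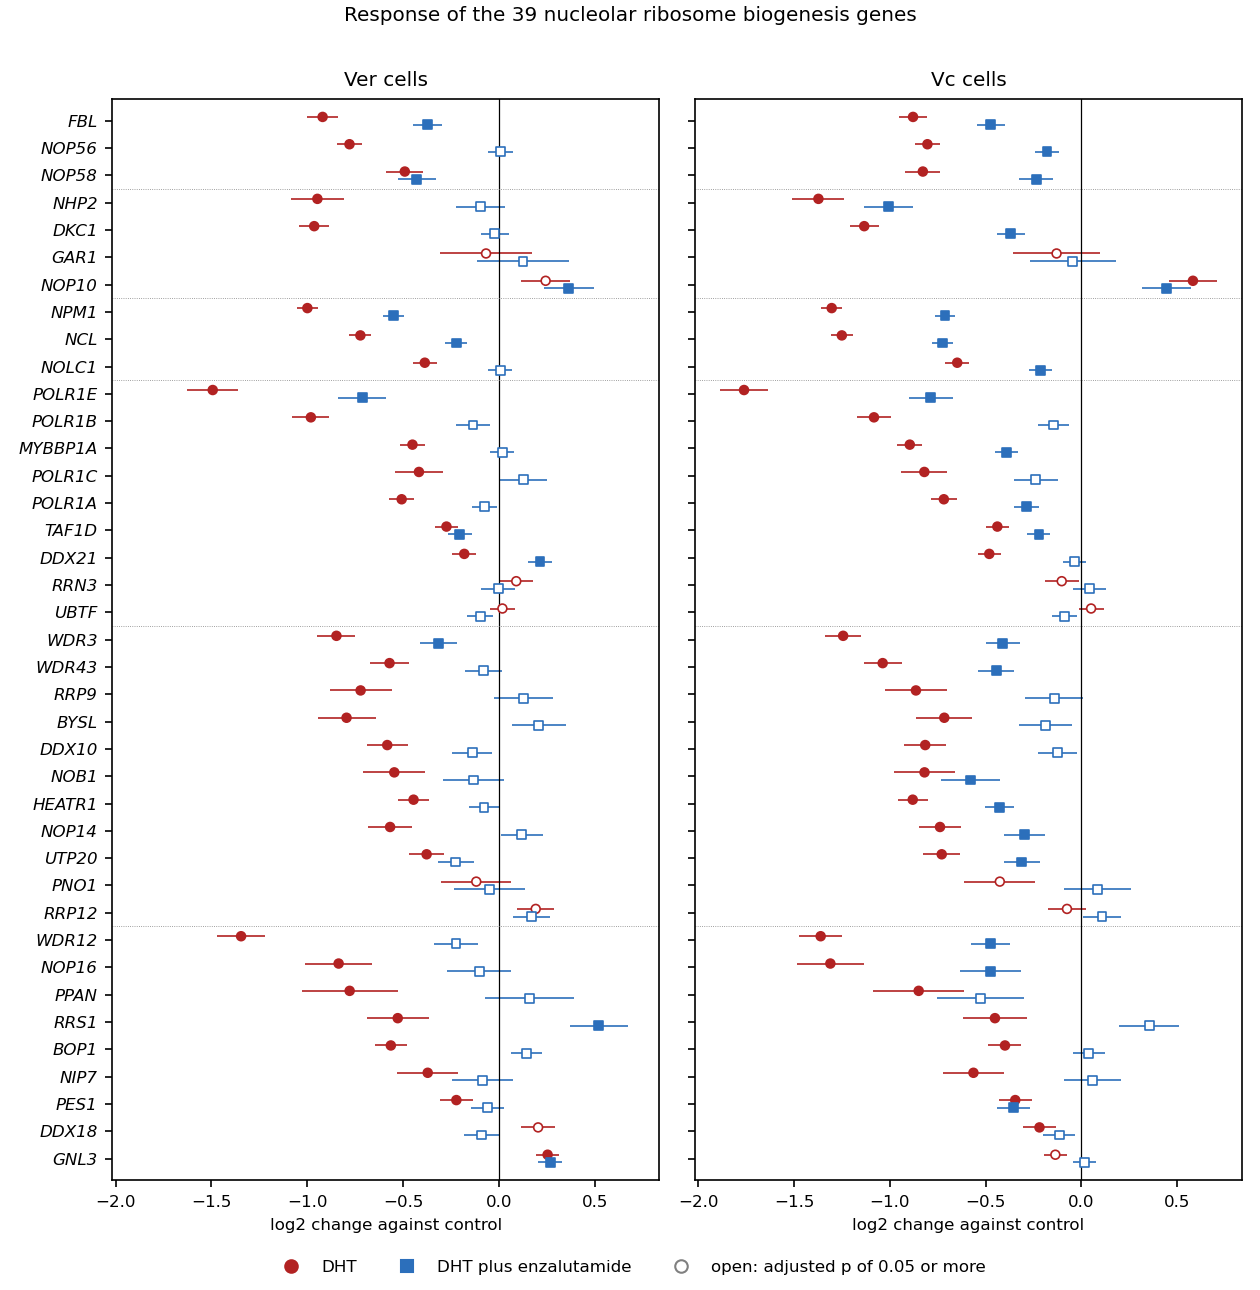
Fitted log2 change against the control of the same line for each of the 39 genes (rows, grouped by role), in Ver (left) and Vc (right). Red circles are DHT and blue squares are DHT plus enzalutamide, bars are the SE, and open symbols have an adjusted p of 0.05 or more. Red symbols lie left of 0 for 33 of 39 genes in Ver and 37 of 39 in Vc, with POLR1E farthest left at -1.49 and -1.76, and most blue symbols lie nearer to 0.

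Promoter windows were looked at because the genes fell together. RefSeq windows on GRCh38.p14, from 250 bases before to 50 bases after the first listed start of a gene, were found for 32 of the 39. No entry was found for BOP1, DDX18, NOLC1, NOP58, POLR1E, RRP12 and RRS1. The E-box CACGTG, which reads the same on both strands and is the motif known to bind MYC with its partner MAX, lay in 10 of the 32 windows (31.25%), against 7.435% of 27305 windows of all genes and 9.184% of 13512 windows of protein-coding genes. The androgen response element's hexamer AGAACA, searched on both strands, lay in 5 of the 32 (15.62%), against 14.85% of all windows and 10.27% of those of protein-coding genes. The 10 genes with an E-box were BYSL, FBL, MYBBP1A, NOP10, NOP14, PES1, PNO1, RRP9, UTP20 and WDR43. Only 2 of the 32 (6.25%) had one wholly within the 250 bases upstream of the start, against 6.49% of all windows, so upstream of the start the 2 shares were close. The stretches of 30 bases around the E-boxes of 7 genes are shown, 5′ to 3′ on the strand of the gene, with the E-box in capitals. They were chosen to show genes that fell with DHT (FBL, RRP9, WDR43, MYBBP1A and UTP20) beside the one that rose in Vc (NOP10, with 2 E-boxes) and one that passed the test in neither line (PNO1).
FBL, chr19:39846356-39846385, minus strand: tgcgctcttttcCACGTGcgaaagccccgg
RRP9, chr3:51941892-51941921, minus strand: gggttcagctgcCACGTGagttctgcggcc
WDR43, chr2:28894658-28894687, plus strand: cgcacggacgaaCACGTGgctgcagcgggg
MYBBP1A, chr17:4555340-4555369, minus strand: ggggccggagcaCACGTGtttcgtgtttcg
UTP20, chr12:101280083-101280112, plus strand: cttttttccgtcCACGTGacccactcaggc
NOP10, chr15:34343130-34343159, minus strand: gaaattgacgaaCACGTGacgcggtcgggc
NOP10, chr15:34343289-34343318, minus strand: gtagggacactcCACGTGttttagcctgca
PNO1, chr2:68157885-68157914, plus strand: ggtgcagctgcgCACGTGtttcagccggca

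With DHT, 8 of the 10 genes with one were called lower in Ver and 8 in Vc, with median log2 changes of -0.51 and -0.73. Of the 22 genes with a window and no E-box, 18 were called lower in Ver and 18 in Vc, with medians of -0.56 and -0.82. These counts describe the windows and were not tested. A match in a window is a run of letters and not a measured binding site. MYC itself, which is not among the 39, had 40.3 and 43.1 CPM with DHT against 315 and 323 CPM in controls of Ver, and 51.3 and 54.2 CPM with DHT against 372 and 384 CPM in controls of Vc. Its log2 change was -2.93 ± 0.064 in Ver and -2.84 ± 0.062 in Vc. Its part in the changes of the 39 genes was not tested.

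The 3 genes followed here that encode core proteins of the box C/D snoRNP all fell with DHT in both lines. FBL (chr19:39834458-39846414, minus strand, GRCh38), the methyltransferase of the particle, had 49.8 and 40.6 CPM with DHT in Ver, against 88.6 and 82.7 CPM in Ver controls, and 57.6 and 56.4 CPM with DHT in Vc, against 101 and 108 CPM in Vc controls. Every DHT library lay below every control library of its line. Its log2 change was -0.92 ± 0.079 (adjusted p = 3.65e-21) in Ver and -0.88 ± 0.075 (adjusted p = 2.14e-21) in Vc. NOP56 (chr20:2652145-2658393, plus strand), a scaffold protein and the most counted of the 3, had 87.1 and 75.9 CPM with DHT in Ver, against 136 and 144 CPM in Ver controls, and 83.5 and 80.0 CPM with DHT in Vc, against 151 and 135 CPM in Vc controls. That is a log2 change of -0.78 ± 0.067 (adjusted p = 4.58e-21) in Ver and -0.80 ± 0.067 (adjusted p = 2.46e-22) in Vc, close to that of FBL. NOP58 (chr2:202265716-202303666, plus strand), the other scaffold protein, had 35.4 and 34.2 CPM with DHT in Ver, against 46.5 and 51.3 CPM in Ver controls, and 34.7 and 42.8 CPM with DHT in Vc, against 70.6 and 66.3 CPM in Vc controls. The log2 change of NOP58 was -0.49 ± 0.096 (adjusted p = 5.46e-06) in Ver and -0.83 ± 0.092 (adjusted p = 1.12e-14) in Vc.

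The box H/ACA snoRNP did not move as 1 unit: the genes of 2 of its 4 core proteins fell in each line, and NOP10 was higher in Vc. DKC1 (chrX:154762742-154777689, plus strand), the pseudouridine synthase, had 45.7 and 45.0 CPM with DHT in Ver, against 86.6 and 90.3 CPM in Ver controls, and 44.7 and 45.8 CPM with DHT in Vc, against 104 and 94.7 CPM in Vc controls. Its level with DHT was nearly the same in both lines, and its log2 change was -0.96 ± 0.078 (adjusted p = 3.10e-23) in Ver and -1.13 ± 0.076 (adjusted p = 1.72e-29) in Vc. NHP2 (chr5:178149460-178153967, minus strand), an RNA-binding protein of the particle, had 14.5 and 12.5 CPM with DHT in Ver, against 25.6 and 26.7 CPM in Ver controls, and 12.2 and 12.3 CPM with DHT in Vc, against 30.5 and 32.9 CPM in Vc controls. It fell, with a log2 change of -0.95 ± 0.14 (adjusted p = 1.03e-09) in Ver and -1.37 ± 0.14 (adjusted p = 1.62e-17) in Vc. NOP10 (chr15:34341713-34343177, minus strand), a small protein that holds the synthase in place, had 25.4 and 24.1 CPM with DHT in Ver, against 19.0 and 22.7 CPM in Ver controls, and 28.8 and 31.0 CPM with DHT in Vc, against 20.1 and 19.8 CPM in Vc controls. It rose in Vc, where its log2 change was 0.58 ± 0.13 (adjusted p = 3.72e-05), while in Ver the value was 0.24 ± 0.13 (adjusted p = 0.121). GAR1, the fourth core protein, had 7.85 and 5.35 CPM with DHT in Ver, against 6.50 and 7.33 CPM in Ver controls, and 9.11 and 5.18 CPM with DHT in Vc, against 8.55 and 7.31 CPM in Vc controls. Its libraries overlapped between DHT and control in both lines, its 2 DHT libraries of Vc stood far apart, and its log2 change was -0.067 ± 0.24 (adjusted p = 0.854) in Ver and -0.13 ± 0.23 (adjusted p = 0.693) in Vc.

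The genes of the abundant nucleolar proteins all fell. NPM1 (chr5:171387116-171411137, plus strand), nucleophosmin, a histone and ribosome chaperone, had 159 and 165 CPM with DHT in Ver, against 332 and 318 CPM in Ver controls, and 158 and 148 CPM with DHT in Vc, against 384 and 373 CPM in Vc controls. The DHT libraries had about the same level in both lines, and the log2 change was -1.0 ± 0.055 (adjusted p = 6.54e-38) in Ver and -1.30 ± 0.054 (adjusted p = 2.44e-50) in Vc. NPM1 has 45 named pseudogenes in GENCODE 29, more than any other of the 39, and how the authors' counting treated reads shared with them was not tested. NCL (chr2:231453531-231483641, minus strand), nucleolin, which binds the ribosomal RNA precursor, had 135 and 144 CPM with DHT in Ver, against 228 and 233 CPM in Ver controls, and 169 and 152 CPM with DHT in Vc, against 392 and 372 CPM in Vc controls. Its controls differed between the lines more than its DHT libraries did, and the log2 change was -0.72 ± 0.058 (adjusted p = 1.79e-23) in Ver and -1.25 ± 0.056 (adjusted p = 9.62e-47) in Vc. NOLC1 (chr10:102152176-102163871, plus strand), a chaperone of snoRNPs, had 115 and 108 CPM with DHT in Ver, against 149 and 143 CPM in Ver controls, and 115 and 115 CPM with DHT in Vc, against 188 and 173 CPM in Vc controls, with a log2 change of -0.39 ± 0.063 (adjusted p = 4.40e-08) in Ver and -0.65 ± 0.061 (adjusted p = 1.49e-18) in Vc.

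**Figure D2:**
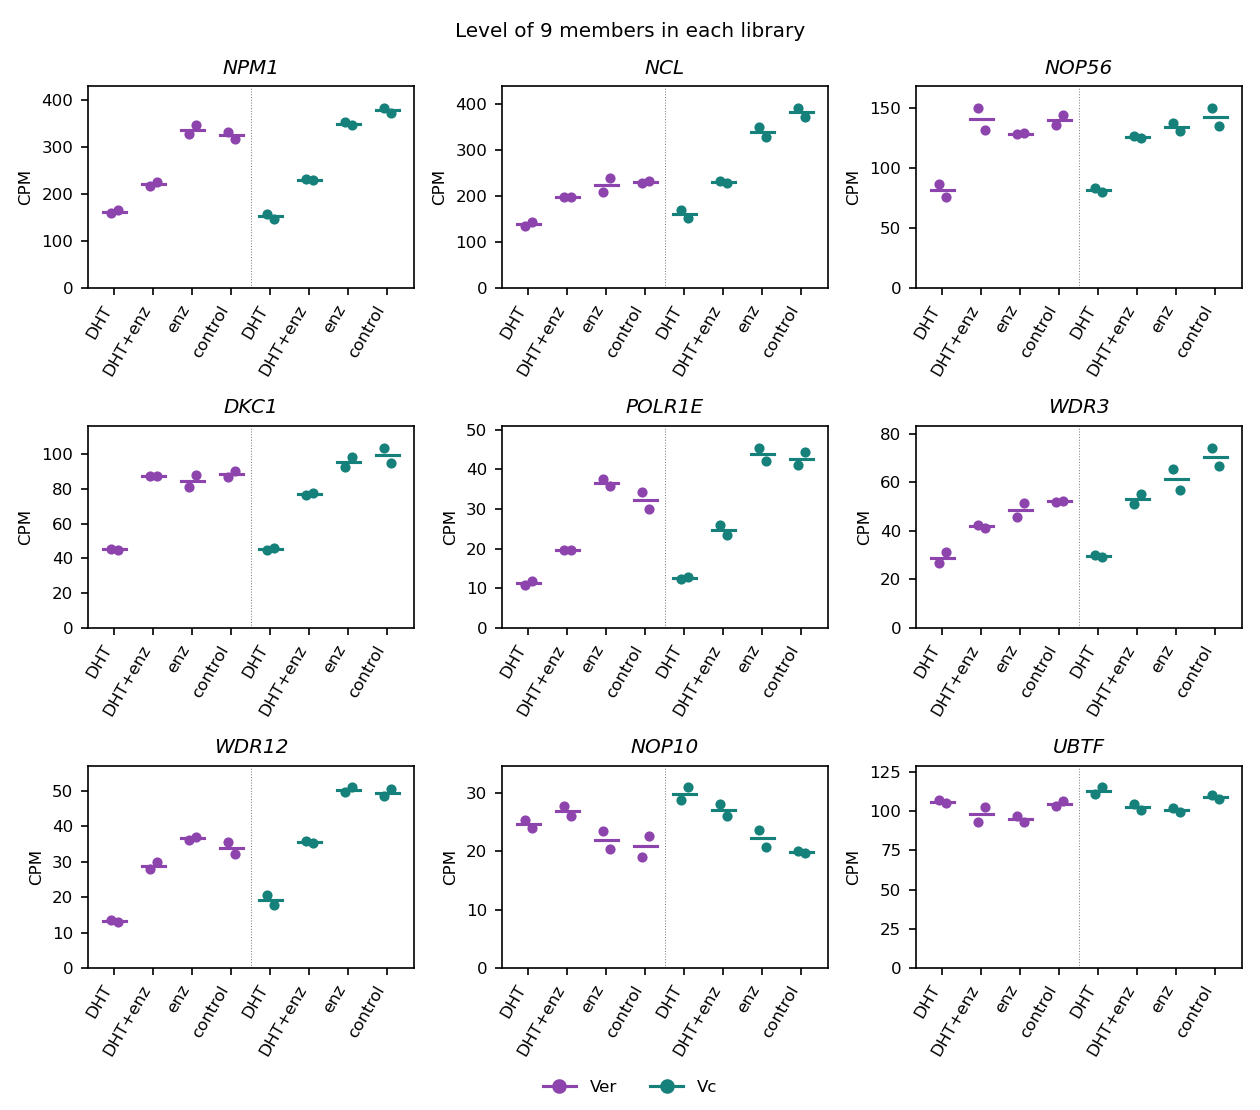
Level of 9 of the genes in each library, in CPM with TMM scaling on axes that start at 0. Points are libraries, short bars are means of the 2 libraries, Ver is purple and Vc is green, and each line has DHT, DHT plus enzalutamide, enzalutamide and control from left to right. NPM1, for example, had 158 and 148 CPM with DHT in Vc against 384 and 373 CPM in Vc controls, with both compounds between them at 233 and 229 CPM, while UBTF lay between 93.3 and 115 CPM in all 16 libraries.

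Among the 9 genes of RNA polymerase I transcription, 7 fell in Ver and 7 in Vc. POLR1E (chr9:37485935-37503697, plus strand), a subunit of the polymerase, had 11.0 and 11.9 CPM with DHT in Ver, against 34.3 and 30.1 CPM in Ver controls, and 12.3 and 12.9 CPM with DHT in Vc, against 41.0 and 44.4 CPM in Vc controls. Its fall was the largest of all 39 genes in each line, with a log2 change of -1.49 ± 0.13 (adjusted p = 2.52e-20) in Ver and -1.76 ± 0.13 (adjusted p = 4.04e-27) in Vc. The other polymerase subunits among the 39 genes were lower as well. POLR1B, one of the 2 that form the catalytic core, had a log2 change of -0.98 ± 0.096 in Ver and -1.08 ± 0.089 in Vc. POLR1A, the other, had -0.51 ± 0.066 and -0.72 ± 0.066, and POLR1C, which RNA polymerase III shares, had -0.42 ± 0.12 and -0.82 ± 0.12. The call of POLR1C in Ver rested on 1 library: without the second DHT library its log2 change was -0.31 and its adjusted p 0.0980.

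The factors that recruit or start the polymerase had smaller fitted changes than the subunits named above, a difference that was not tested. UBTF (chr17:44205033-44221626, minus strand), which binds and opens the ribosomal genes, had 107 and 105 CPM with DHT in Ver, against 103 and 106 CPM in Ver controls, and 111 and 115 CPM with DHT in Vc, against 110.3 and 108 CPM in Vc controls. Its libraries overlapped between DHT and control in Ver, and its log2 change was 0.019 ± 0.066 (adjusted p = 0.853) in Ver and 0.050 ± 0.065 (adjusted p = 0.577) in Vc. RRN3, which joins the polymerase to its promoter, had 0.091 ± 0.086 (adjusted p = 0.425) in Ver and -0.10 ± 0.088 (adjusted p = 0.368) in Vc. TAF1D, a subunit of the promoter selectivity factor, fell with a log2 change of -0.27 ± 0.062 in Ver and -0.44 ± 0.061 in Vc. DDX21 (chr10:68956128-68985073, plus strand), an RNA helicase that links transcription to processing and the most counted of this group, had 131 and 148 CPM with DHT in Ver, against 167 and 150.2 CPM in Ver controls, and 141 and 145 CPM with DHT in Vc, against 208 and 191 CPM in Vc controls. Its log2 change was -0.48 ± 0.060 (adjusted p = 3.49e-12) in Vc and -0.18 ± 0.061 (adjusted p = 0.0107) in Ver, but in Ver it was not called by DESeq2 (adjusted p = 0.0627) nor without the first control library (log2 change -0.10) or the first DHT library (-0.095). MYBBP1A, a nucleolar protein that restrains polymerase I transcription and takes part in processing, fell with a log2 change of -0.45 ± 0.063 in Ver and -0.90 ± 0.065 in Vc.

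Of the 11 genes of small subunit processing, 9 fell in each line. HEATR1 (chr1:236549005-236604504, minus strand), a large scaffold of the early processing complex and the most counted of this group, had 46.2 and 56.6 CPM with DHT in Ver, against 70.5 and 69.3 CPM in Ver controls, and 50.1 and 49.4 CPM with DHT in Vc, against 92.4 and 90.8 CPM in Vc controls. The first DHT library of Ver was the lowest of all, and the log2 change was -0.45 ± 0.081 (adjusted p = 1.02e-06) in Ver and -0.88 ± 0.079 (adjusted p = 4.93e-20) in Vc. WDR3 (chr1:117929720-117966542, plus strand), a WD-repeat protein of the same complex, had 26.7 and 31.3 CPM with DHT in Ver, against 52.0 and 52.2 CPM in Ver controls, and 30.2 and 29.4 CPM with DHT in Vc, against 74.3 and 66.9 CPM in Vc controls. It had the largest fall of the group when the lines are averaged, with a log2 change of -0.85 ± 0.099 (adjusted p = 1.47e-13) in Ver and -1.24 ± 0.095 (adjusted p = 6.12e-25) in Vc. WDR3 shares 1759 bases of exon with SPAG17, on the other strand, and HEATR1 shares 2095 bases with LGALS8 in the same way. In counts made in union mode without strand, reads that overlap both genes are counted for neither. The effect on these values was not tested. WDR43, another WD-repeat protein of the complex, had -0.57 ± 0.10 and -1.04 ± 0.10.

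The other small subunit genes that fell lay between -0.79 and -0.38 in Ver and between -0.86 and -0.72 in Vc. They were RRP9, of the snoRNP that guides the first cuts, BYSL and NOP14, which join the young subunit, the helicase DDX10, the scaffold UTP20, and NOB1, the nuclease of the final cut. RRP12 (chr10:97356358-97426076, minus strand), which takes part in subunit export, had 53.5 and 51.3 CPM with DHT in Ver, against 47.1 and 44.6 CPM in Ver controls, and 38.3 and 34.3 CPM with DHT in Vc, against 37.6 and 39.3 CPM in Vc controls. It was not called, with a log2 change of 0.19 ± 0.095 (adjusted p = 0.0922) in Ver and -0.075 ± 0.099 (adjusted p = 0.581) in Vc. PNO1, the partner of NOB1, had -0.12 ± 0.18 (adjusted p = 0.648) in Ver and -0.43 ± 0.18 (adjusted p = 0.0502) in Vc, just outside the threshold.

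Of the 9 genes of large subunit processing, 7 fell and 1 rose in Ver, and 8 fell in Vc. WDR12 (chr2:202874782-203014798, minus strand), which forms a complex with PES1 and BOP1, had 13.6 and 13.0 CPM with DHT in Ver, against 35.5 and 32.1 CPM in Ver controls, and 20.5 and 17.9 CPM with DHT in Vc, against 48.7 and 50.5 CPM in Vc controls. Its log2 change was -1.35 ± 0.12 (adjusted p = 1.92e-19) in Ver and -1.36 ± 0.11 (adjusted p = 1.23e-22) in Vc. Its partners had smaller fitted changes: BOP1 had -0.56 ± 0.084 in Ver and -0.40 ± 0.086 in Vc, and PES1 had -0.22 ± 0.085 and -0.35 ± 0.086. The call of PES1 in Ver was lost when any of 3 libraries was left out (the second control or either DHT library), with log2 changes between -0.25 and -0.11, with DESeq2 (adjusted p = 0.0801) and with only the groups of the comparison (adjusted p = 0.0628). GNL3 (chr3:52681156-52694492, plus strand), nucleostemin, a GTPase of the nucleolus, had 142 and 143 CPM with DHT in Ver, against 123 and 116 CPM in Ver controls, and 134 and 133 CPM with DHT in Vc, against 143 and 149.7 CPM in Vc controls. Its log2 change was 0.25 ± 0.062 (adjusted p = 2.47e-04) in Ver and -0.14 ± 0.061 (adjusted p = 0.0578) in Vc, and with library totals alone the value in Ver was 0.065 (adjusted p = 0.413).

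NOP16 and PPAN, both of the large subunit pathway, had falls of -0.84 ± 0.18 and -0.78 ± 0.25 in Ver and -1.31 ± 0.18 and -0.85 ± 0.24 in Vc on the log2 scale. PPAN shares exons with the read-through gene PPAN-P2RY11, and its call in Ver was lost without the second control library (log2 change -0.49) or the first DHT library (-0.59). RRS1, which brings a small ribosomal RNA into the subunit, and NIP7 had log2 changes of -0.53 ± 0.16 and -0.37 ± 0.16 in Ver and -0.45 ± 0.17 and -0.56 ± 0.16 in Vc. In Vc the call of RRS1 was lost without the second control or either DHT library (-0.47 to -0.39), and that of NIP7 without the second control or the second DHT library (-0.36 and -0.43). In Ver that of NIP7 was lost without the second control or the first DHT library (-0.20 and -0.21), and under every other setting run except library totals alone, with adjusted p = 0.0512 with the replicate block and 0.166 with DESeq2. DDX18, an RNA helicase, had 52.6 and 61.5 CPM with DHT in Ver, against 51.1 and 47.9 CPM in Ver controls, and 57.4 and 57.9 CPM with DHT in Vc, against 70.1 and 64.0 CPM in Vc controls. Its log2 change was -0.22 ± 0.085 (adjusted p = 0.0270) in Vc and 0.20 ± 0.089 (adjusted p = 0.0502) in Ver, and the call in Vc was lost without the first control library (-0.15) or either DHT library (-0.21 and -0.23) and with DESeq2.

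Genes outside the 39 give the setting. Of 125 tested genes of a longer list of other ribosome biogenesis genes, 53 were called lower and 19 higher with DHT in Ver, and 65 lower and 10 higher in Vc, with median log2 changes of -0.23 and -0.38. Among them, 27 of 49 other large subunit genes were called lower in Ver and 31 in Vc, as did 15 and 19 of 40 other small subunit genes, 5 and 4 of 13 other polymerase I genes, 3 and 6 of 10 snoRNP assembly genes and 3 and 5 of 13 RNA exosome genes. Over all genes tested 22.9% were called lower in Ver and 22.5% in Vc, and 29.2% in each line among genes with a mean of at least 5 CPM. Near these shares are the counts of exosome and snoRNP assembly genes in Ver and of other polymerase I genes in Vc. Of the 79 cytosolic ribosomal protein genes, 68 were called lower and 0 higher in Ver, and 75 lower and 0 higher in Vc (71 in Ver and 75 in Vc had an unadjusted p under 0.05). Their median log2 change of -0.36 in Ver and -0.38 in Vc was smaller than that of the 39 nucleolar genes, and 0 of the 79 fell by 2-fold or more. These lists are described by their counts, and the difference between them was not tested.

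**Figure D3:**
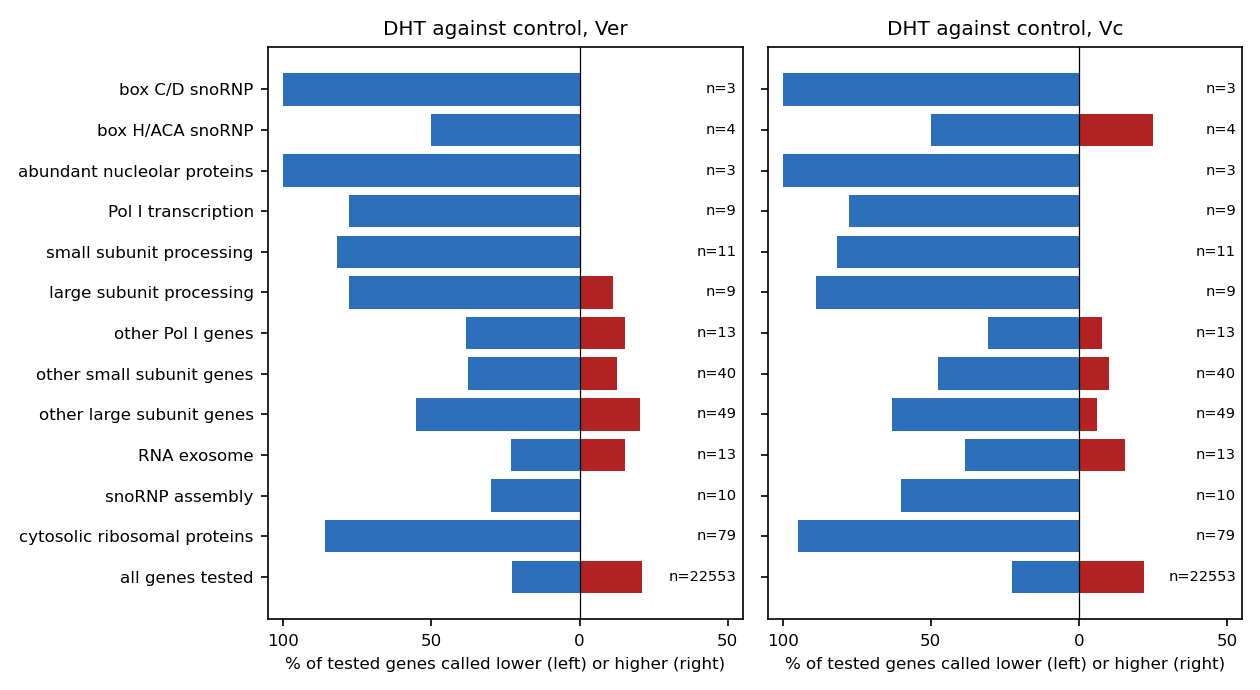
Share of tested genes called lower (blue, to the left) and higher (red, to the right) with DHT against control in Ver (left panel) and Vc (right panel), in percent, for the 6 role groups of the 39 genes, 6 lists of other genes of the pathway and all genes tested. The number of genes tested stands at the right of each row. All 3 box C/D genes and all 3 abundant nucleolar proteins were called lower in both lines, 68 and 75 of 79 ribosomal protein genes, and 22.9% and 22.5% of all genes.

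With enzalutamide alone 1 of the 39 genes passed the test, in Vc. In Ver 0 were called, where 0.470% of all genes were called higher and 0.661% lower, with 2 at an unadjusted p under 0.05 and 0 called by DESeq2. In Vc 1 was called lower and 0 higher, where 0.155% of all genes were called higher and 0.381% lower, with 10 at an unadjusted p under 0.05. The 1 was DDX21, with 172 and 163 CPM with enzalutamide against 208 and 191 CPM in Vc controls and a log2 change of -0.25 ± 0.059 (adjusted p = 0.0134). Without the first control library it was -0.19 (adjusted p = 0.578), without the first enzalutamide library -0.29 (adjusted p = 0.0641) and without the second -0.21 (adjusted p = 0.450). The median log2 change of the 39 genes with enzalutamide was -0.034 in Ver and -0.11 in Vc, against -0.0055 and 0.0040 over all genes. Their summed level was 2726 ± 61.5 CPM with enzalutamide against 2788 ± 30.8 CPM in controls of Ver, and 3054 ± 48.2 CPM with enzalutamide against 3280 ± 47.2 CPM in controls of Vc (mean ± SD, n = 2). In Ver both enzalutamide libraries lay below both controls for 12 of the 39 genes and above them for 6, against 19.2% and 18.3% of all genes. In Vc they lay below for 22 and above for 3, against 19.1% and 19.6% of all genes. The shift of the 39 genes together was not tested.

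Adding enzalutamide to DHT brought most of the genes back up. The summed level was 2615 ± 15.5 CPM with both compounds against 2013 ± 29.5 CPM with DHT alone in Ver, and 2630 ± 40.2 CPM with both against 1960 ± 32.7 CPM with DHT alone in Vc (mean ± SD, n = 2). Against DHT alone, 25 genes were called higher and 1 lower in Ver, where 13.7% of all genes were called higher and 13.2% lower, and 28 higher and 0 lower in Vc, where 11.5% were called higher and 11.0% lower. In Vc 31 passed an unadjusted p under 0.05, and DESeq2 called 27 higher and 0 lower. The median log2 difference was 0.45 in Ver and 0.45 in Vc, against 0.016 and 0.016 over all genes. Of the genes lower with DHT, 25 were higher again with both compounds in Ver and 27 in Vc, and 23 did so in both lines. How many of all genes did so was not counted. With library totals alone, all genes split into 4126 higher and 2104 lower in Ver and 3290 higher and 1806 lower in Vc, against 3098 and 2978 in Ver and 2588 and 2471 in Vc with TMM, and 29 of the 39 were higher in Ver and 30 in Vc, with 0 lower. The comparisons with DHT and with both compounds share the DHT libraries and are not independent.

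Values by library show how far the levels came. POLR1E had 19.7 and 19.6 CPM with both compounds in Ver, against 11.0 and 11.9 CPM with DHT alone, and 26.0 and 23.4 CPM with both in Vc, against 12.3 and 12.9 CPM with DHT alone, still below the controls of either line. WDR12 had 27.8 and 30.0 CPM with both compounds in Ver, against 13.6 and 13.0 CPM with DHT alone, and 36.0 and 35.3 CPM with both in Vc, against 20.5 and 17.9 CPM with DHT alone. DKC1 had 87.2 and 87.2 CPM with both compounds in Ver, against 45.7 and 45.0 CPM with DHT alone, and 76.4 and 77.3 CPM with both in Vc, against 44.7 and 45.8 CPM with DHT alone, and its Ver libraries then lay within the range of the Ver controls. NOP56 had 150.2 and 132 CPM with both compounds in Ver, against 87.1 and 75.9 CPM with DHT alone, and 127 and 126 CPM with both in Vc, against 83.5 and 80.0 CPM with DHT alone, with log2 differences of 0.79 ± 0.068 and 0.62 ± 0.067. HEATR1 had 68.3 and 64.2 CPM with both compounds in Ver, against 46.2 and 56.6 CPM with DHT alone, and 68.7 and 67.5 CPM with both in Vc, against 50.1 and 49.4 CPM with DHT alone. Without the first DHT library of Ver, its log2 difference there was 0.23 (adjusted p = 0.0789). WDR3 had 42.3 and 41.4 CPM with both compounds in Ver, against 26.7 and 31.3 CPM with DHT alone, and 51.2 and 55.1 CPM with both in Vc, against 30.2 and 29.4 CPM with DHT alone. In all 6 of these genes both libraries with both compounds lay above both with DHT alone, in each line. Of all the genes followed, that held for 31 in Ver and 34 in Vc, against 30.4% and 29.3% of all genes tested. Both lay below for 3 in Ver and 2 in Vc, against 28.9% and 27.5% of all genes tested. NPM1 had 218 and 225 CPM with both compounds in Ver, against 159 and 165 CPM with DHT alone, and 233 and 229 CPM with both in Vc, against 158 and 148 CPM with DHT alone, with log2 differences of 0.45 ± 0.056 and 0.59 ± 0.055. Not called in either line were NOP10, GAR1, UBTF, RRN3, RRP12, NOB1, PES1 and GNL3. The gene called lower in Ver was DDX18, with 42.7 and 50.3 CPM with both compounds against 52.6 and 61.5 CPM with DHT alone and a log2 difference of -0.29 ± 0.090 (adjusted p = 0.00760). Its call was lost without the first library with both compounds or the second DHT library (log2 difference -0.18 each) and with library totals alone (-0.20).

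With both compounds more of the genes stayed below the control of their own line in Vc than in Ver by count. The summed level with both compounds was close in the lines, at 2615 ± 15.5 CPM in Ver and 2630 ± 40.2 CPM in Vc. That of the controls was 2788 ± 30.8 CPM in Ver and 3280 ± 47.2 CPM in Vc (mean ± SD, n = 2). The part of the control levels in these counts was not tested. Against control, 4 genes were called higher and 7 lower in Ver, where 12.4% of all genes were called higher and 10.3% lower, and 1 higher and 21 lower in Vc, where 15.3% were called higher and 13.2% lower. Genes with a mean of at least 5 CPM had shares of 21.1% higher and 14.9% lower in Ver, so the 7 lower there are near that share. In Vc those shares were 25.4% and 18.7%. With library totals alone, all genes split into 1977 higher and 3427 lower in Ver and 2553 higher and 4133 lower in Vc, against 2788 and 2329 in Ver and 3451 and 2967 in Vc with TMM, and the 39 into 2 higher and 11 lower in Ver and 1 higher and 26 lower in Vc. These counts of Ver and Vc were not tested against each other. The median log2 difference of the 39 genes was -0.076 in Ver and -0.24 in Vc. The 7 lower in Ver were FBL, NOP58, NPM1, NCL, POLR1E, TAF1D and WDR3, and all 7 were also lower in Vc. The farthest from control were POLR1E in Ver, at -0.71 ± 0.13 (adjusted p = 1.08e-06), and NHP2 in Vc, at -1.01 ± 0.13 (adjusted p = 2.41e-11). In Ver NHP2 with both compounds was at 24.3 and 24.6 CPM against 25.6 and 26.7 CPM in control, and in Vc at 15.6 and 15.9 CPM against 30.5 and 32.9 CPM. NOP10 was higher than control in both lines, by 0.37 ± 0.13 in Ver and 0.44 ± 0.13 in Vc, and in Ver its call was lost without the first control or either library with both compounds (0.24 to 0.41), with library totals alone (0.27) and with DESeq2. In Vc it was lost without the first library with both compounds (0.39). DDX21, RRS1 and GNL3 were the others called higher in Ver, at 0.21 ± 0.061, 0.52 ± 0.15 and 0.27 ± 0.062. The call of DDX21 was lost without the second control (0.15), without the first library with both compounds (0.18) and with library totals alone (0.12), and that of RRS1 without the second control (0.49). Leaving out single libraries ended 5 of the 11 calls in Ver and 8 of the 22 in Vc in some fit.

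MYC, like the summed level of the 39 genes, was between its DHT and control levels with both compounds. It had 239 and 215 CPM with both compounds in Ver and 204 and 208 CPM in Vc, and with enzalutamide alone 353 and 333 CPM in Ver and 379 and 378 CPM in Vc. FKBP5 had 114 and 149 CPM with both compounds in Ver and 228 and 253 CPM in Vc. KLK3, an androgen target that encodes prostate-specific antigen, had 84.6 and 74.6 CPM with both compounds in Ver, against 87.2 and 86.7 CPM with DHT alone, and 61.3 and 57.4 CPM with both in Vc, against 75.5 and 68.1 CPM with DHT alone. It was not called in Ver (log2 difference -0.13 ± 0.085, adjusted p = 0.295) and was lower in Vc (-0.28 ± 0.087, adjusted p = 0.0112). TMPRSS2, another androgen target, had 206 and 242 CPM with both compounds in Ver, against 702 and 686 CPM with DHT alone, and 346 and 358 CPM with both in Vc, against 794 and 803 CPM with DHT alone. Other lists of the pathway were higher with both compounds than with DHT as well: 52 of 79 ribosomal protein genes in Ver and 43 in Vc, with 0 lower in either line, and 43 and 45 of 125 other biogenesis genes, with 5 lower in each line, where 13.7% of all genes were called higher in Ver and 11.5% in Vc.

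Without treatment the genes were more often lower in Ver than in Vc. Their summed level was 2788 ± 30.8 CPM in Ver controls against 3280 ± 47.2 CPM in Vc controls (mean ± SD, n = 2). In Ver against Vc 3 were called higher and 15 lower, where 9.13% of all genes tested were called higher and 9.73% lower, with a median log2 difference of -0.20 against 0.012 over all genes. Of genes with a mean of at least 5 CPM, 14.1% were called higher and 15.5% lower. NCL had 228 and 233 CPM in Ver controls against 392 and 372 CPM in Vc controls, the largest difference, at -0.73 ± 0.055 (adjusted p = 1.95e-24) on the log2 scale. WDR12 had 35.5 and 32.1 CPM in Ver controls against 48.7 and 50.5 CPM in Vc controls, a log2 difference of -0.55 ± 0.11 (adjusted p = 1.01e-05). POLR1B had 53.4 and 52.5 CPM in Ver controls against 72.0 and 80.7 CPM in Vc controls, a log2 difference of -0.53 ± 0.085 (adjusted p = 1.95e-07). In all 3 both Ver libraries lay below both Vc libraries, but they were chosen for their large differences, which favours such a separation. Of all the genes followed, 25 had both Ver controls below both Vc controls and 5 had them above. The shares of all genes tested were 27.1% and 27.6%. The 3 called higher in Ver were RRP12, UTP20 and BOP1, at 0.26 ± 0.097, 0.32 ± 0.091 and 0.35 ± 0.082. The call of RRP12 was lost without any 1 of the 4 control libraries (0.22 to 0.30), with DESeq2, without the filter and with only the groups of the comparison, that of UTP20 without the first Vc or the first Ver control (0.28 and 0.23), and that of BOP1 without the first Vc control (0.24).

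Under DHT the lines were closer. The summed level was 2013 ± 29.5 CPM in Ver against 1960 ± 32.7 CPM in Vc, and the median log2 difference was 0.0040. In that comparison 4 genes were called higher and 4 lower, where 7.90% of all genes were called higher and 9.37% lower. For genes with a mean of at least 5 CPM it was 12.5% and 15.3%, so both counts are near the shares of other genes. The lower ones were FBL, NCL, POLR1B and WDR12, and the higher ones RRN3, MYBBP1A, RRP12 and UTP20. UTP20 had 46.1 and 48.4 CPM with DHT in Ver against 31.9 and 27.0 CPM with DHT in Vc, a log2 difference of 0.68 ± 0.099 (adjusted p = 1.09e-08). RRP12 had 53.5 and 51.3 CPM in Ver against 38.3 and 34.3 CPM in Vc, a log2 difference of 0.52 ± 0.097 (adjusted p = 6.65e-06). WDR12 had 13.6 and 13.0 CPM in Ver against 20.5 and 17.9 CPM in Vc, a log2 difference of -0.54 ± 0.13 (adjusted p = 9.23e-04). Both UTP20 and RRP12 were thus higher in each Ver library than in each Vc library under DHT, but they were chosen for their large differences. Of all the genes followed, 15 had both Ver libraries above both Vc libraries under DHT and 8 had them below. The shares of all genes tested were 26.2% and 27.2%. Without the first DHT library of Vc, 3 were called higher and 2 lower. Calls lost without 1 library were those of FBL and POLR1B (the second DHT library of Ver, at -0.19 and -0.28), NCL (the first DHT library of Vc or of Ver, at -0.12 and -0.16), RRN3 and WDR12 (the first DHT library of Vc, at 0.29 and -0.43).

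With enzalutamide alone 1 gene was called higher and 12 lower in Ver against Vc, where 7.88% of all genes were called higher and 8.69% lower, and with both compounds 8 higher and 8 lower, where 9.28% were called higher and 11.0% lower. Of genes with a mean of at least 5 CPM, 12% were called higher and 14% lower with enzalutamide alone. With both compounds those shares were 15% and 18%, so the 8 lower there are near the share of other genes. With both compounds NOP58 had 36.5 and 36.2 CPM in Ver against 58.8 and 57.4 CPM in Vc, a log2 difference of -0.68 ± 0.095 (adjusted p = 2.29e-09). NHP2 went the other way, with 24.3 and 24.6 CPM in Ver against 15.6 and 15.9 CPM in Vc and a log2 difference of 0.63 ± 0.14 (adjusted p = 9.31e-05). POLR1B had 50.4 and 46.1 CPM in Ver against 70.5 and 67.4 CPM in Vc, a log2 difference of -0.52 ± 0.088 (adjusted p = 7.39e-07). In each of these 3 genes the lines did not overlap, but they were chosen for their large differences, which favours such a separation. Of all the genes followed, 11 had both Ver libraries below both Vc libraries with both compounds and 16 had them above. The shares of all genes tested were 28.6% and 27.3%. With enzalutamide alone NCL had 209 and 238 CPM in Ver against 349 and 328 CPM in Vc, a log2 difference of -0.60 ± 0.056 (adjusted p = 4.18e-18), and WDR12 had 36.2 and 37.1 CPM in Ver against 49.8 and 51.0 CPM in Vc, a log2 difference of -0.46 ± 0.11 (adjusted p = 4.05e-04). With enzalutamide alone DDX18 had 44.3 and 45.9 CPM in Ver against 56.9 and 59.6 CPM in Vc, a log2 difference of -0.37 ± 0.090 (adjusted p = 9.54e-04). Leaving out the first enzalutamide library of Vc left 0 called higher and 6 lower, and leaving out that of Ver left 1 higher and 6 lower. With both compounds, leaving out the first library of Vc left 4 higher and 5 lower, and leaving out that of Ver 6 higher and 4 lower.

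Across the 4 treatments 3 genes were called lower in Ver each time: NCL, POLR1B and WDR12. UTP20 was called higher each time, and MYBBP1A was called lower with enzalutamide alone and higher with DHT and with both compounds. The other genes were called under some treatments in 1 direction, except 15 called under none. How many of all genes have such patterns over the 4 treatments was not counted. For POLR1B with enzalutamide, any 1 library left out ended the call (-0.26 to -0.25), and the same held for WDR12 with both compounds (-0.36 to -0.24). Both were also lost with DESeq2 and with library totals alone. For UTP20 the call with enzalutamide was lost without the first Vc or the second Ver library (0.27 and 0.25), and that with both compounds without the second Ver library (0.29).

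**Figure D4:**
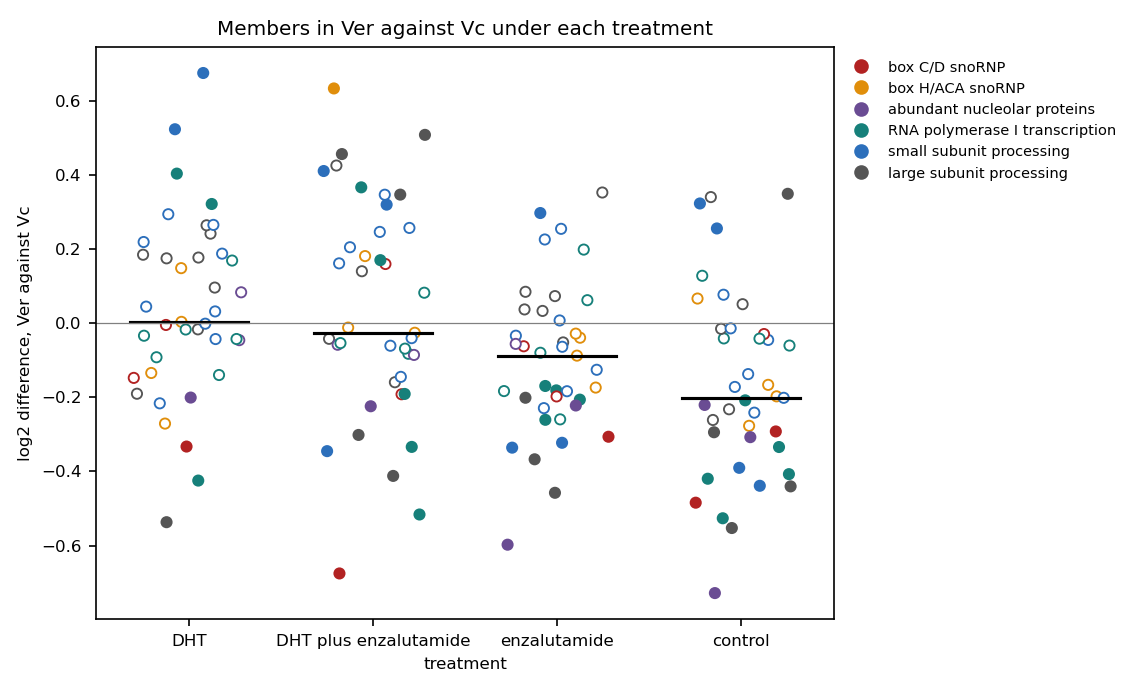
Log2 difference of each of the 39 genes in Ver against Vc (vertical axis) under each treatment (horizontal axis; points are spread sideways to be visible). Points are genes coloured by role, filled where the adjusted p is under 0.05 and open otherwise, and bars are medians over the 39 genes. The medians are 0.0040 with DHT, -0.025 with both compounds, -0.087 with enzalutamide and -0.20 in controls.

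For part of the genes the response to DHT differed between the lines. The test of the difference between the lines (Ver minus Vc) called 7 genes positive and 0 negative, where 0.891% of all genes were called positive and 1.43% negative, with 15 of the 39 under 0.05 before adjustment and 5 positive and 0 negative by DESeq2. The 39 genes had a median difference of 0.23, against -0.014 over all genes. By the fitted value, 33 genes had a more positive log2 change with DHT in Ver than in Vc, and the 6 others were BOP1, BYSL, FBL, NOP10, RRS1 and UBTF. NCL differed most, with log2 changes of -0.72 in Ver and -1.25 in Vc and a difference of 0.53 ± 0.080 (adjusted p = 4.53e-07). MYBBP1A had -0.45 in Ver and -0.90 in Vc, a difference of 0.45 ± 0.091 (adjusted p = 3.83e-04). GNL3 had 0.25 in Ver and -0.14 in Vc, a difference of 0.39 ± 0.087 (adjusted p = 0.00163). These 3 kept their call with every single library left out.

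The 4 others depended on single libraries. The difference was 0.44 ± 0.11 (adjusted p = 0.0140) for HEATR1, 0.42 ± 0.12 (adjusted p = 0.0360) for DDX18, 0.30 ± 0.077 (adjusted p = 0.00933) for NPM1 and 0.30 ± 0.086 (adjusted p = 0.0329) for DDX21. Without the first Vc control, the second DHT library of Vc, the second Ver control or the second DHT library of Ver, 3 genes were called, and without the first DHT library of Vc 4 were. The largest drop was for HEATR1 without the second DHT library of Ver, to 0.28 (adjusted p = 0.355). NOP16 and WDR43 had differences among the largest in size but were not called, at 0.47 ± 0.25 (adjusted p = 0.447) and 0.47 ± 0.14 (adjusted p = 0.0511). Each difference rests on 8 libraries, and the controls of Ver were themselves lower than those of Vc in NCL, NPM1, HEATR1, DDX18, DDX21 and GNL3.

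Differences between the lines in the other responses were few. For enzalutamide alone 0 of the 39 genes were called, by edgeR and by DESeq2, with 4 at an unadjusted p under 0.05, where 0% of all genes were called positive and 0.0222% negative. The 3 largest were RRP9 at -0.31 ± 0.22, PPAN at 0.30 ± 0.32 and NOP58 at 0.29 ± 0.13. For enzalutamide on top of DHT 1 gene was called negative and 0 positive, where 0.638% of all genes were called positive and 0.652% negative, with 6 of the 39 at an unadjusted p under 0.05. With library totals alone the split of all genes was 184 positive and 106 negative, against 144 and 147 with TMM, and 1 of the 39 was negative. With TMM the gene was NOP58, with 36.5 and 36.2 CPM with both compounds in Ver, against 35.4 and 34.2 CPM with DHT alone, and 58.8 and 57.4 CPM with both in Vc, against 34.7 and 42.8 CPM with DHT alone. In Ver its libraries with both compounds lay just above those with DHT alone, at a log2 difference of 0.063, and in Vc well above, at 0.59. The difference between the lines was -0.53 ± 0.14 (adjusted p = 0.0226). It lost its call without the first DHT library of Vc (-0.38, adjusted p = 0.310), without either library with both compounds in Ver and without 3 other single libraries (-0.55 to -0.50). PPAN and NHP2 had large differences the other way, at 0.62 ± 0.36 (adjusted p = 0.513) and 0.49 ± 0.20 (adjusted p = 0.281), which were not called.

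Annotation limits a few of these values. On GENCODE 29, 18 of the 39 genes share no exon with another gene, 7 overlap an exon of another gene on the same strand and 16 on the other strand. Counting was without strand. Within 9 of the genes, on the same strand, lie 34 genes annotated as snoRNA or small Cajal body RNA, and GNL3, one of the 9, holds 6. Whether they lie in introns was not checked, and overlaps with them are not among those above. Named pseudogenes exist for 9 of the genes.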

How the data were processed

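The authors deposited read counts per gene for each library, which are the values used here, and 1 table of normalized signal per gene and library. That deposited signal was checked against the counts: it equals the counts divided by a size factor per library, and only its pairing of identifiers with gene symbols entered the work. HTSeq 0.11.1, HISAT2, SAMtools, Trimmomatic 0.36-5 and FastQC 0.11.7, with GRCh38, are listed in the submitters' processing notes. Per the names of the deposited count files, counting was in union mode without strand. RNA was polyA-selected and built with an mRNA-seq kit, per the labels' protocols.

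The 5 summary lines of each file were set aside. edgeR 4.0.16 (R 4.3.3) was fitted to the counts: filterByExpr by group (22553 of 58302 genes), TMM scaling, and the robust quasi-likelihood F test, two-sided, over all 16 libraries in 8 groups (8 residual degrees of freedom; the biological coefficient of variation common to all genes was 6.01%). In all, 15 comparisons were made. p-values were adjusted by Benjamini-Hochberg over all genes tested, and a gene was called under 0.05. All adjusted p-values are from this test unless DESeq2 (1.42.0) is named. The SE is the log2 change divided by the square root of F. Level per kb uses merged exon lengths of GENCODE 29. Promoter windows are RefSeq's, on GRCh38.p14. After this fit the test was also run on simulated counts drawn from the mean levels and fitted spread of these data, and the outcome is not reported here.

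The 39 genes, the pathway lists and the marker lists were chosen with earlier results of these data known. Values per library are given for the most counted gene of each role and for those with the largest and smallest change with DHT averaged over the lines, for the 3 largest differences between Ver and Vc under each treatment, and for most genes behind counts of 5 or fewer; others were picked after their values were seen. Replicate libraries differed by more than counting noise in every group (chi-square per degree of freedom 2.45 to 3.65), so none was a copy of another. Alternatives were size factors of the DESeq2 type, library totals alone, DESeq2's Wald test, no filter, only the groups compared, the replicate number as a block, and each library left out in turn.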

Additional observations from a re-analysis of the deposited data

Results flagged for a closer look

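Of the 39 genes, 8 had a response that differed between the lines by the test of the difference itself (Ver minus Vc, on the log2 scale, edgeR's quasi-likelihood test). For the response to DHT these were NCL at 0.53, MYBBP1A at 0.45, HEATR1 at 0.44, DDX18 at 0.42, GNL3 at 0.39, NPM1 at 0.30 and DDX21 at 0.30. In NCL, MYBBP1A, HEATR1, NPM1 and DDX21 the fall with DHT was smaller in Ver than in Vc, and DDX18 and GNL3 had a positive fitted change in Ver and a negative one in Vc. For the effect of enzalutamide on top of DHT it was NOP58, at -0.53. Groups held 2 libraries each, so single libraries could not be screened for outlying values.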

How the results depend on the processing

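Over the 13 comparisons with a call, 216 calls of single genes were made, and 148 kept direction and call under every alternative run. Of 2192 alternative values, 2002 kept the call, 190 lost it and 0 reversed. The number of the 39 genes called stayed within 1.5 times the reported one under every setting other than leaving out a library, except for enzalutamide in Vc, where 3 were called with only the groups of the comparison, against 1. With single libraries left out, counts ran from 29 to 31 for DHT in Ver (reported: 32), 30 to 32 in Vc (33), 23 to 27 for both compounds against DHT in Ver (26), 23 to 28 in Vc (28), 8 to 11 for both compounds against control in Ver (11), 15 to 21 in Vc (22), 0 to 0 for enzalutamide in Ver (0), 0 to 1 in Vc (1), 13 to 16 for Ver against Vc untreated (18), 5 to 8 with DHT (8), 6 to 11 with enzalutamide (13), 9 to 12 with both (16), 3 to 9 for the difference in DHT response (7), 0 to 0 for that in enzalutamide response (0) and 0 to 1 for that of enzalutamide on top of DHT (1). These fits leave 1 library in a group, which is assumed to vary like the other groups. The median log2 change with DHT ran from -0.55 to -0.49 in Ver and from -0.81 to -0.72 in Vc with single libraries left out, and was -0.72 in Ver and -0.98 in Vc with library totals alone; that scaling also lowered the median of all genes. The replicate numbers do not pair the libraries: over 28 pairs of groups, the correlation of same-numbered libraries' deviations ran from -0.023 to 0.028. With the number as a replicate block, 31 genes were called for DHT in Ver and 34 in Vc, and 1 of the 216 calls was lost, NIP7 with DHT in Ver. Genes of low count, such as PPAN and GAR1, had the widest SEs. With 2 libraries a group all tests are limited, and causes of lost calls were not tested.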

Other observations

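The lines differed under DHT in the wider pathway. Of 125 tested ribosome biogenesis genes outside the 39, 30 were called higher and 6 lower in Ver than in Vc with DHT, where 7.90% of all genes tested were called higher and 9.37% lower, with a median log2 difference of 0.10. Of genes with a mean of at least 5 CPM, 12.5% were called higher and 15.3% lower with DHT. Without treatment 12 were called higher and 12 lower, with a median of -0.026. Of all genes 9.13% were then called higher and 9.73% lower, so both counts are near the shares of all genes. For the response to DHT itself, 4 of the 125 were called positive and 0 negative (20 at an unadjusted p under 0.05), with a median difference of 0.11. There 0.891% of all genes were called positive and 1.43% negative.

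Cytosolic ribosomal protein genes stayed below control with both compounds. Of the 79, 49 were called lower and 0 higher than control in Ver (60 at an unadjusted p under 0.05), and 68 lower and 0 higher in Vc (72), where 10.3% and 13.2% of all genes were called lower. Their median log2 difference was -0.17 in Ver and -0.25 in Vc. With enzalutamide alone 0 of the 79 were called by edgeR in either line, with 2 at an unadjusted p under 0.05 in Ver and 7 in Vc.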
